A study of Mus musculus with 4 samples.

Results

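The interferon response was followed through 35 listed mouse genes in the hearts of Mef2a knockout and wild type mice. Members were grouped by function into 27 targets of type I interferon and 8 GTPases induced by interferon gamma. The GTPases are 4 guanylate-binding proteins (GBPs) and 4 immunity-related GTPases (IRGs). The list was chosen with earlier results of these data known, so member shares set beside all genes are descriptions, not independent evidence. A probe set was found for 33 of the 35, among 18784 named genes on the array, and these comprised 26 type I targets and 7 gamma-induced GTPases. Isg15, a ubiquitin-like modifier, and Irgm2, an IRG, had no matching probe set. Ifi44 was matched through the gene number in the probe set name, because the platform annotation did not list it.

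Hearts were dissected into chambers at 2 months of age, and 4 pools of total RNA were measured on 1 array each: atria of Mef2a knockout mice, atria of wild type (Mef2a+/+) mice, ventricles of Mef2a knockout mice and ventricles of wild type mice. Mef2a encodes a transcription factor of heart and skeletal muscle. Each pool held equimolar RNA of 7 mice, and males and females were both used, but how many of each is not stated. The labels also do not state which part of Mef2a was deleted, or whether the same mice gave both chambers. There are no replicates within a group, so no difference was tested and every value describes these 4 pools.

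The deposited values are log2 intensities. Array medians were 5.75 for knockout atria, 5.72 for wild type atria, 5.66 for knockout ventricles and 5.69 for wild type ventricles. The Mef2a probe set read 10.41 on the knockout-labelled and 10.32 on the wild type atrial array, and 10.34 on the knockout-labelled and 10.28 on the wild type ventricular array. The signal was thus not lower on the knockout-labelled arrays, and because the probes may lie outside the deleted part it does not check the genotype. Every genotype direction rests on the labels. Atrial cardiomyocyte markers averaged 12.06 on both atrial arrays, against 7.18 in knockout and 7.52 in wild type ventricles. All 5 of them were higher in atria and all 5 ventricular cardiomyocyte markers were lower, so these markers follow the chamber labels. Xist, which is expressed in females, differed by -0.33 (log2) between the knockout and wild type atrial pools and by -0.15 between the ventricular pools. Uty, which is expressed in males, differed by -0.03 between the atrial pools and by -0.04 between the ventricular pools. The part of sex balance in any result was not tested.

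Cells that meet viral nucleic acid secrete type I interferon, which acts through its receptor on a complex that holds STAT2 and IRF9 and switches on genes that carry an interferon-stimulated response element (ISRE). Interferon gamma, made by T and NK cells, acts at gamma-activated sites (GAS) and induces the GBPs and IRGs, many of which attack the vacuoles of intracellular microbes. Most of these genes are also expressed at a low level without infection, and in the heart endothelial cells, fibroblasts, macrophages and cardiomyocytes all respond to interferon.

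Letters of both kinds of element occurred in the start-site sequences of the members. A promoter from RefSeq (mouse assembly GRCm38.p6), running from 250 bases before to 50 bases after the start, was matched for 26 of the 35 genes. Dhx58, Gbp6, Iigp1, Mx1, Mx2, Oas2, Parp14, Rtp4 and Usp18 were not among those used. The ISRE was searched as GAAA, any 2 bases, then GAAA again, and the GAS as TTCNNNGAA, on both strands, and matches of the 2 motifs were allowed to overlap. The ISRE letters occurred in 16 of the 26 (61.5%), against 3.99% of 27025 gene promoters, and the GAS letters in 8 (30.8%), against 9.55%. Among the gamma-induced GTPases, without Gbp6 and Iigp1, all 6 promoters used held the ISRE letters and 3 held the GAS letters. Among type I targets 10 of 20 held the ISRE letters and 5 the GAS letters. A match is a description of these letters, not a measured site. The 160 bases before the start are printed 5′ to 3′ on the gene's own strand, with matches in capitals, for 3 gamma-induced GTPases: Igtp has both motifs side by side, Gbp7 has GAS matches upstream of an ISRE match, and Irgm1 has overlapping ISRE matches.
Igtp, chr11:58199396-58199555, plus strand: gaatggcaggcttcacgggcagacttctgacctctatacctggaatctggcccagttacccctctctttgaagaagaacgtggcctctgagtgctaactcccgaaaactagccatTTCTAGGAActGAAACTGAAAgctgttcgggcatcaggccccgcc
Gbp7, chr3:142530176-142530335, plus strand: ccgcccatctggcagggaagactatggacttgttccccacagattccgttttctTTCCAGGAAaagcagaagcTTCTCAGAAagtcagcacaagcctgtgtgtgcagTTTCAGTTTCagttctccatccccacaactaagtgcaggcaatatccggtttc
Irgm1, chr11:48871421-48871580, minus strand: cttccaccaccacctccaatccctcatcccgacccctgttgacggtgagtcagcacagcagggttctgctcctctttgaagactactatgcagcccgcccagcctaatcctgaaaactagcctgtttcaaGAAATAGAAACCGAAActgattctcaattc

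Type I targets are represented by Rsad2, the type I target with the widest wild type chamber difference, by Ifit3 with its paired ISRE matches, and by the transcription factor Irf1, whose window held a GAS match and no ISRE match.
Rsad2, chr12:26456453-26456612, minus strand: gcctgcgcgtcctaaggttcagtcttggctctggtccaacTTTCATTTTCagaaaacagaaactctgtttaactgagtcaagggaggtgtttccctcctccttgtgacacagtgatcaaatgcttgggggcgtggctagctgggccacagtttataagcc
Ifit3, chr19:34583369-34583528, plus strand: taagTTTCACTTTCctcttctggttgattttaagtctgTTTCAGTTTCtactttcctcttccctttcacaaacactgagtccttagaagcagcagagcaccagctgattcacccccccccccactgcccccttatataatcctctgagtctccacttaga
Irf1, chr11:53769854-53770013, plus strand: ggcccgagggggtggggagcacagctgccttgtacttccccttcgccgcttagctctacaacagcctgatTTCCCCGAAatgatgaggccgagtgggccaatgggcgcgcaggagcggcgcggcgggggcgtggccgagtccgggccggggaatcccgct

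The median of all values in the table, 5.71 (log2), served as a floor for calling a gene measurable. Of the 33 members, 19 reached it on every array, 28 on at least 1 array and 5 on none. The 5 below it were Dhx58, a regulator of RNA sensing, Oas1a and Oas3, synthetases that make the messenger activating RNase L, and the dynamin-like antiviral GTPases Mx1 and Mx2. Mx1 read 2.84 in knockout and 2.83 in wild type atria, and 3.02 in knockout and 2.96 in wild type ventricles. Dhx58 read 4.999 in knockout and 4.72 in wild type atria, and 4.56 in knockout and 4.51 in wild type ventricles. Oas1a ran from 4.76 in knockout atria to 5.28 in knockout ventricles, and a close copy, Oas1g, makes its value uncertain. Values this low do not show whether the genes were expressed. Another 6 members, Gbp6, Iigp1, Irf7, Ifit2, Oas2 and Rsad2, reached the floor on both ventricular arrays and on neither atrial array, Irf7 in knockout atria falling just short of it. Across the 4 arrays Oas3 and Mx2 lay between 3.84 and 4.58. Levels of different probe sets cannot be ranked against each other, so each gene is compared only with itself across arrays.

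**Figure D1:**
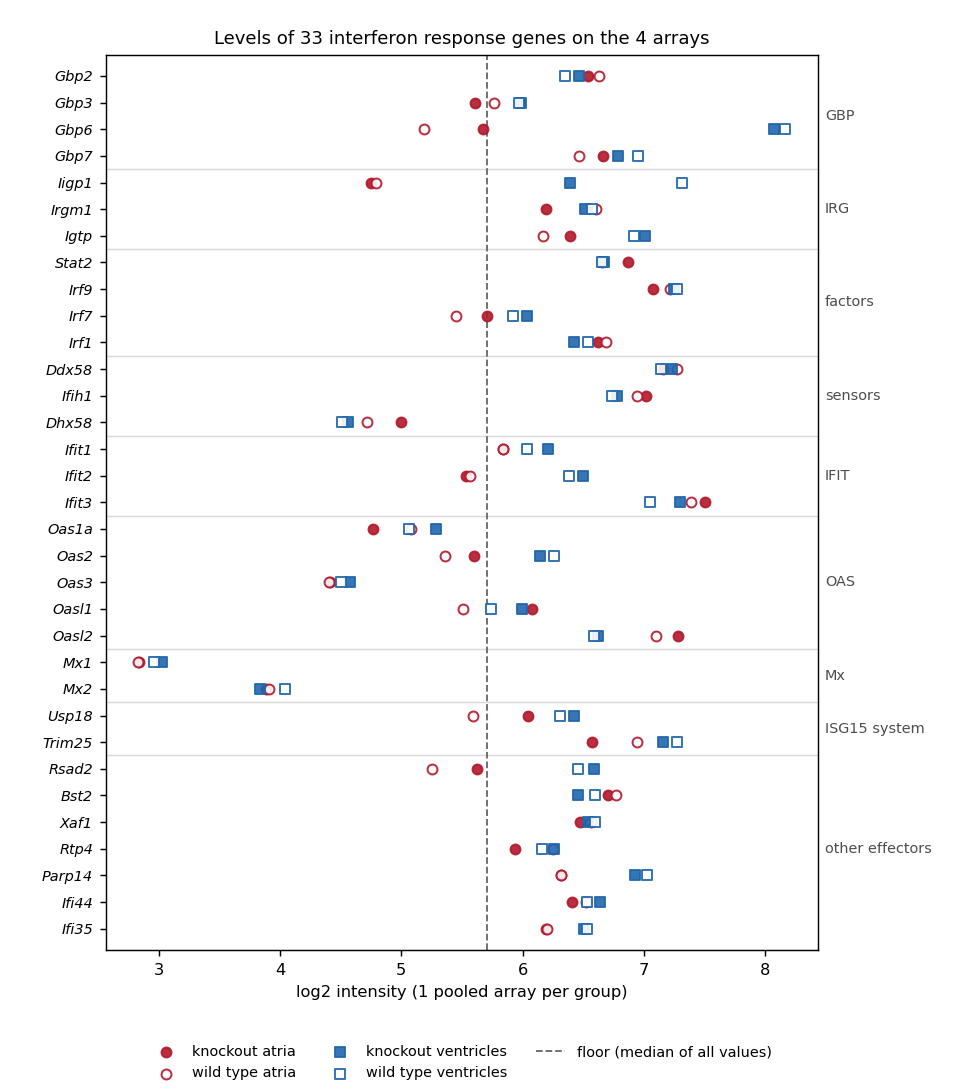
Log2 intensity of the 33 measured members on the 4 arrays, 1 pooled array per group, with circles for atria, squares for ventricles, filled for knockout and open for wild type, and a dashed line at the floor of 5.71. The atrial markers of Gbp6 and Iigp1 stand far to the left of their ventricular markers, while most other members have their 4 markers close together.

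More members were lower than higher in atria, and the difference was wide in a few of them. Both atrial arrays lay below both ventricular arrays for 18 of the 33 measured members, a share of 54.5%, against 27.1% of all named genes. Among genes that reached the floor on at least 1 array the contrast was smaller, at 16 of 28 members (57.1%) against 37.6%. Both atrial arrays lay above both ventricular arrays for 7 of 33 members, against 27.3% of all named genes, and for 6 of 28 at the floor, against 31%. The 7 were Gbp2, Irf1, Ifih1, Dhx58, Ifit3, Oasl2 and Bst2, of which Dhx58 lay under the floor and Gbp2 lost the pattern in knockout hearts under median centring. Atria minus ventricles was negative for 23 of 33 members in knockout hearts, against 44.0% of all genes, and for 22 of 33 in wild type hearts, against 54.2%. At the floor it was negative for 20 of 28 in knockout hearts, against 55.4% of all genes, and for 19 of 28 in wild type hearts, against 51.5%. The median over the 33 was -0.23 (log2) in knockout hearts, against 0.04 for all genes, and -0.13 in wild type hearts, against -0.02. At the floor it was -0.32 in knockout hearts, against -0.05 for all genes, and -0.20 in wild type hearts, against -0.01. Of these 28, the 6 that reached the floor on the ventricular arrays alone are lower in atria by construction. When both arrays of a pair had to reach the floor, the member medians were smaller in size, as given at the end. In bulk tissue such as this, fewer cells of a type and less RNA per cell cannot be told apart.

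In knockout hearts 2 of the 28 members that reached the floor differed by 2-fold between chambers, both lower in atria, where 2.85% of all genes were lower and 3.46% higher (6.3% in either direction). In wild type hearts 3 of 28 did so, all lower in atria, where 2.21% of all genes were lower and 3.89% higher (6.1% in either direction). Gbp6 and Iigp1 passed in both genotypes, and Rsad2 in wild type hearts. Under median centring or quantile normalization the knockout count was 4, with Rsad2 and Ifit2 added, and when both arrays had to reach the floor it was 0 in either genotype. At 1.5-fold, 7 members passed in knockout hearts, where 17.9% of all genes did, and 8 in wild type hearts, where 16.3% did.

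Gbp6, a GBP that gathers on the vacuoles of intracellular microbes, had the widest chamber difference. It read 5.67 in knockout and 5.19 in wild type atria, against 8.07 in knockout and 8.16 in wild type ventricles. Both atrial values lay under the floor and both ventricular values well above it, with no overlap between chambers. Atria minus ventricles was -2.40 (5.29-fold lower) in knockout hearts, the 18th lowest of 10121 genes, and -2.98 (7.88-fold lower) in wild type hearts, the 10th lowest of 10035.

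Iigp1, an IRG that disrupts pathogen vacuoles, stood at 4.75 in knockout and 4.79 in wild type atria, against 6.39 in knockout and 7.31 in wild type ventricles. Its atrial values were near-identical and both under the floor, so the chamber ratio differed between genotypes through the ventricular arrays. It was -1.64 (3.11-fold lower in atria) in knockout hearts, the 56th lowest, and -2.52 (5.75-fold lower) in wild type hearts, the 16th lowest. Ratios against a value under the floor are imprecise, since log2 values near background are compressed.

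The remaining gamma-induced GTPases varied less and did not move as a block. Igtp (Irgm3), an IRG of the endoplasmic reticulum, read 6.39 in knockout and 6.17 in wild type atria, against 7.01 in knockout and 6.92 in wild type ventricles. Its ratio was -0.62 in knockout and -0.75 in wild type hearts, short of 2-fold, with no overlap of chambers. Irgm1, a regulator of the other IRGs, had ratios of -0.33 in knockout and 0.03 in wild type hearts. Gbp7 had -0.12 in knockout and -0.48 in wild type hearts, and Gbp3 had -0.38 in knockout and -0.21 in wild type hearts. Gbp2 had 0.08 in knockout hearts, a sign that turned under median centring (-0.01), and 0.28 in wild type hearts.

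Among the type I effectors, Rsad2 (viperin), an enzyme that makes a chain-terminating nucleotide, had the widest chamber difference. It read 5.62 in knockout and 5.25 in wild type atria, against 6.59 in knockout and 6.45 in wild type ventricles. The ratio was -0.96 (1.95-fold lower in atria) in knockout hearts, just short of the 2-fold limit, and -1.20 (2.30-fold lower) in wild type hearts, just past it. Ifit2, which binds viral RNA, read 5.54 in knockout and 5.57 in wild type atria, against 6.50 in knockout and 6.38 in wild type ventricles, with ratios of -0.96 in knockout and -0.81 in wild type hearts. Its neighbours on chromosome 19 had smaller ratios: Ifit1 had -0.38 in knockout and -0.20 in wild type hearts, and Ifit3 was higher in atria by 0.21 in knockout and 0.34 in wild type hearts.

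The oligoadenylate synthetases and their relatives split by gene. Oas2 read 5.60 in knockout and 5.36 in wild type atria, against 6.14 in knockout and 6.26 in wild type ventricles, a ratio of -0.55 in knockout and -0.89 in wild type hearts. Oasl2 went the opposite way, at 7.28 in knockout and 7.10 in wild type atria, against 6.62 in knockout and 6.59 in wild type ventricles, higher in atria by 0.66 in knockout and 0.51 in wild type hearts. Its neighbour Oasl1, which represses translation of Irf7, had 0.08 in knockout (-0.01 under median centring) and -0.23 in wild type hearts.

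In the ISG15 pathway, Usp18, the protease that removes ISG15 and damps the receptor, had lower atrial values, with ratios of -0.37 in knockout and -0.72 in wild type hearts. Trim25, a ubiquitin ligase that activates RIG-I, had -0.58 in knockout and -0.33 in wild type hearts. Among the remaining targets, Parp14, a mono-ADP-ribosyltransferase, had -0.61 in knockout and -0.70 in wild type hearts, and Ifi35 had -0.31 in knockout and -0.33 in wild type hearts. The antiviral tether Bst2 was slightly higher in atria, by 0.25 in knockout and 0.18 in wild type hearts. The apoptosis factor Xaf1 had -0.07 in knockout and -0.04 in wild type hearts, and Ifi44 had -0.23 in knockout and -0.01 in wild type hearts. Rtp4, a receptor chaperone, had -0.32 in knockout and 0.09 in wild type hearts.

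The transcription factors of the response had small chamber ratios. Stat2 had 0.20 in knockout and 0.00 in wild type hearts, its partner Irf9 had -0.17 in knockout and -0.06 in wild type hearts, and Irf1 had 0.20 in knockout and 0.14 in wild type hearts. Irf7, the factor that amplifies type I interferon, had the widest ratio of the 4, at -0.34 in knockout and -0.47 in wild type hearts. The RNA sensors Ddx58 (RIG-I) and Ifih1 (MDA5) differed by at most 0.24 (log2) between chambers in both genotypes.

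**Figure D2:**
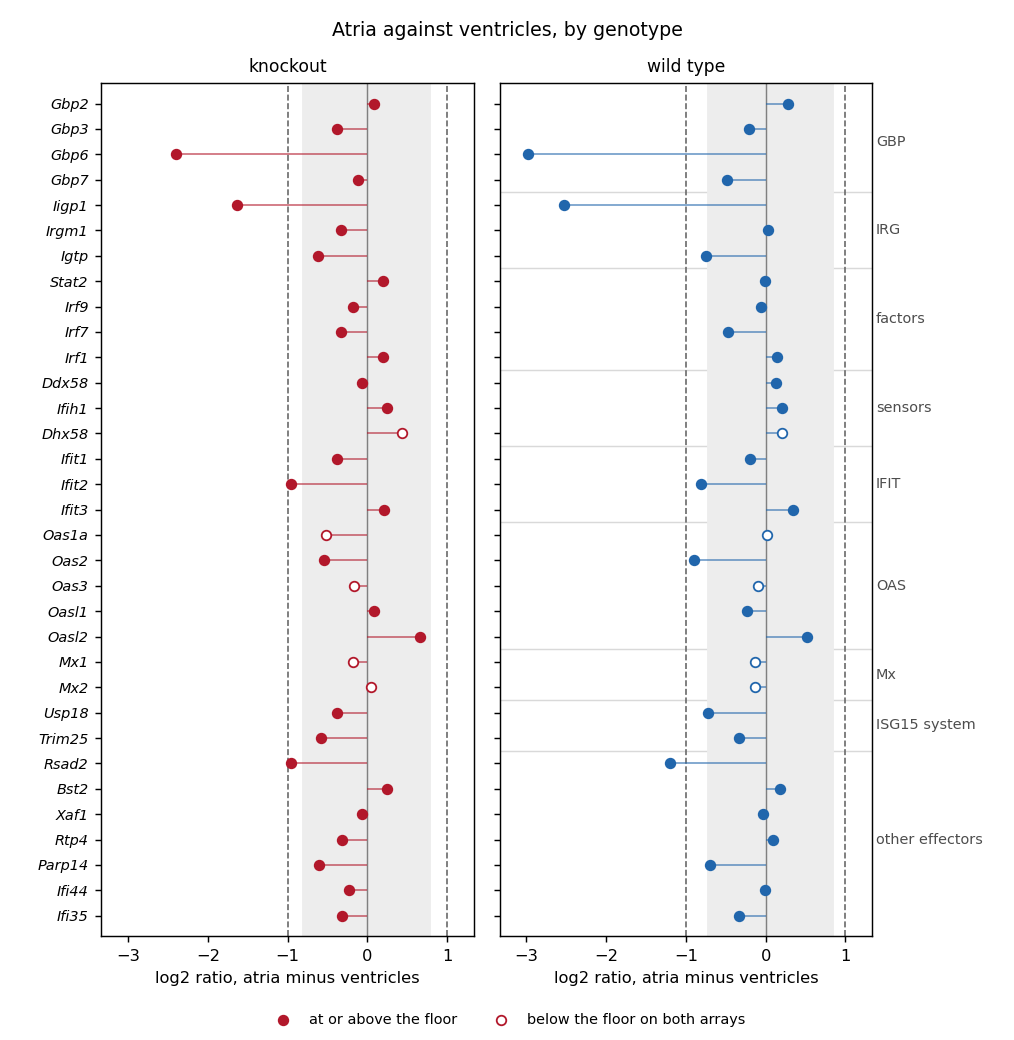
Atria minus ventricles (log2) for each member in knockout and wild type hearts, 1 pooled array per group, with dashed lines at 2-fold and a grey band between the 5th and the 95th percentile of all genes above the floor; open markers lie under the floor on both arrays of the pair. Gbp6, at -2.40 in knockout and -2.98 in wild type hearts, and Iigp1, at -1.64 and -2.52 in the same order, stand far left of the band.

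Set by class with no floor, the 7 gamma-induced GTPases had a median ratio of -0.38 in knockout and -0.48 in wild type hearts. The 26 type I targets had -0.18 in knockout and -0.07 in wild type hearts, and all genes 0.04 and -0.02. At the floor the GTPase medians were the same, and 21 type I targets had -0.23 in knockout and -0.06 in wild type hearts. With both arrays of a pair at the floor, which leaves out Gbp6 and Iigp1, the GTPase medians were smaller in size, as given at the end. The GTPases spread widely, from Gbp6 to Gbp2, and the difference between classes was not tested.

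Chromosomal neighbours differed as well. On chromosome 5, in RefSeq order (GRCm38.p6), Gbp8 had a knockout ratio of 0.42, Gbp9 -0.35, Gbp4 -0.45 and Gbp10 -0.39, next to Gbp6 at -2.40. In wild type hearts Gbp8 had 0.50, Gbp9 -0.39, Gbp4 -0.43 and Gbp10 -1.16, next to Gbp6 at -2.98. Gbp10 lay under the floor on every array, and as a close copy of Gbp6 it may share probes with it, which was not examined, so both values are uncertain. On chromosome 3 no GBP reached 2-fold. There Gbp7 (-0.48 in wild type, -0.12 in knockout hearts) was about the size of Gbp9 and Gbp4 on chromosome 5 in wild type hearts alone. Gbp3 (-0.38 in knockout, -0.21 in wild type hearts) was about their size in knockout hearts alone. Gbp5 had -0.29 in knockout and -0.25 in wild type hearts, and Gbp2b had 0.09 in knockout and 0.12 in wild type hearts, both under the floor. On chromosome 16, Parp14 sat with Dtx3l, a ubiquitin ligase, and Parp9, its partner, and these 3 were all lower in atria. Dtx3l had -0.97 in knockout and -0.77 in wild type hearts, and Parp9 had -0.81 in knockout and -0.54 in wild type hearts.

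**Figure D3:**
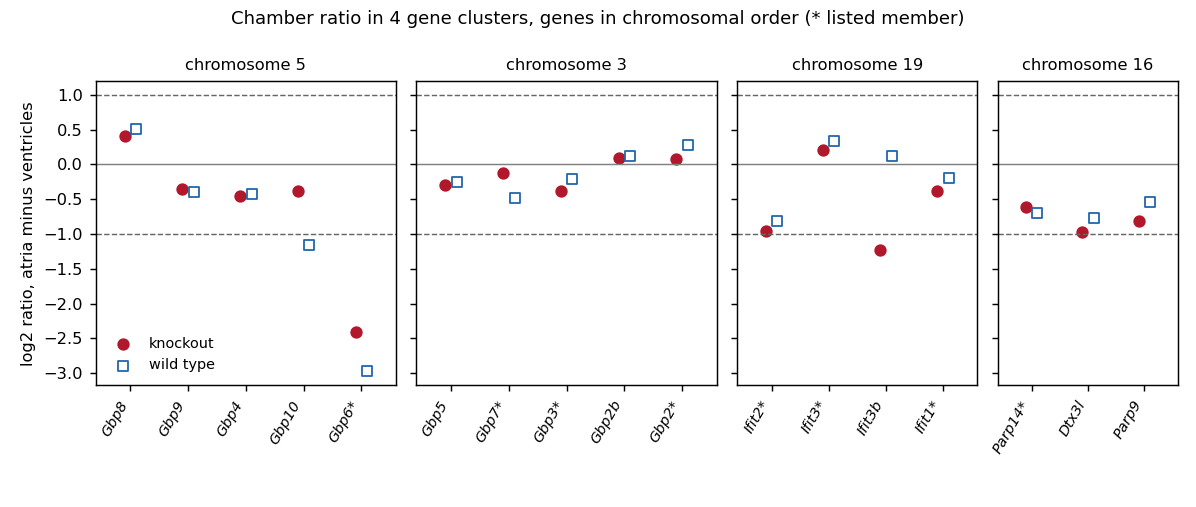
Atria minus ventricles (log2) of members (asterisks) and their chromosomal neighbours, in RefSeq gene order, for knockout and wild type hearts, 1 pooled array per group, with filled circles for knockout, open squares for wild type and dashed lines at 2-fold; Gbp5, Gbp2b, Gbp10 and Ifit3b were under the floor. Gbp6 stands apart from the other GBPs of its cluster, whose values run from 0.50 to -1.16 in wild type hearts.

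The members differed with Mef2a genotype about as often as other genes did. In atria, 0 of the 22 members that reached the floor differed by 1.5-fold between knockout and wild type, where 3.03% of all genes did (1.02% higher, 2.01% lower). The nearest to the limit was Oasl1, which read 6.07 in knockout and 5.51 in wild type atria, a difference of 0.56 (1.48-fold). In ventricles it read 5.996 in knockout and 5.74 in wild type hearts, a difference of 0.26. Over all 33 members, 15 were positive and 18 negative in atria, where 41.8% of all genes were negative. The member median was 0.00 against 0.04 for all genes. At the floor 14 of 22 were negative in atria, against 56.9% of all genes, with a median of -0.04 against -0.03. In ventricles 20 were positive and 13 negative, where 49.0% of all genes were negative, with a median of 0.04 against 0.00. At the floor 12 of 28 were negative in ventricles, against 48.6%, with a median of 0.03 against 0.00.

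The 1 member past 1.5-fold in ventricles, of 28 that reached the floor, was Iigp1, where 1.2% of all genes passed (0.515% higher, 0.69% lower). It was also the 1 member past 0.32 (log2), where 5.26% of all genes passed, and at 2-fold no member passed. It read 6.39 in knockout and 7.31 in wild type ventricles, a difference of -0.93 (1.90-fold lower), the 28th lowest of 9713 genes. In atria both values were under the floor, at 4.75 in knockout and 4.79 in wild type hearts, so a knockout difference there could not be measured. Gbp6, the other member with a wide chamber difference, read 8.07 in knockout and 8.16 in wild type ventricles, a difference of -0.09. Both genes were lower in atria, but their ventricular genotype differences were far apart in size.

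Other members with sizeable atrial differences were Usp18, at 6.04 in knockout and 5.59 in wild type atria (0.46), and Rsad2, at 5.62 in knockout and 5.25 in wild type atria (0.37). On the negative side, Irgm1 read 6.19 in knockout and 6.60 in wild type atria (-0.41), and Trim25 read 6.57 in knockout and 6.94 in wild type atria (-0.36). None of these passed 1.5-fold, both atrial Rsad2 values lay under the floor, and in ventricles these 4 genes differed by 0.13 or less in size. With the limit lowered to 0.32 (log2), 4 members passed in atria, Oasl1 and Usp18 higher and Irgm1 and Trim25 lower, where 16.1% of all genes passed. Gbp6 differed by 0.48 in atria, between values under the floor. In ventricles Ifit3 was higher by 0.25 and Ifit1 by 0.18, within 1.5-fold, and Ifit2 by 0.12. Stat2, Irf9, Irf1, Ddx58 and Ifih1 differed by at most 0.21 in either chamber.

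**Figure D4:**
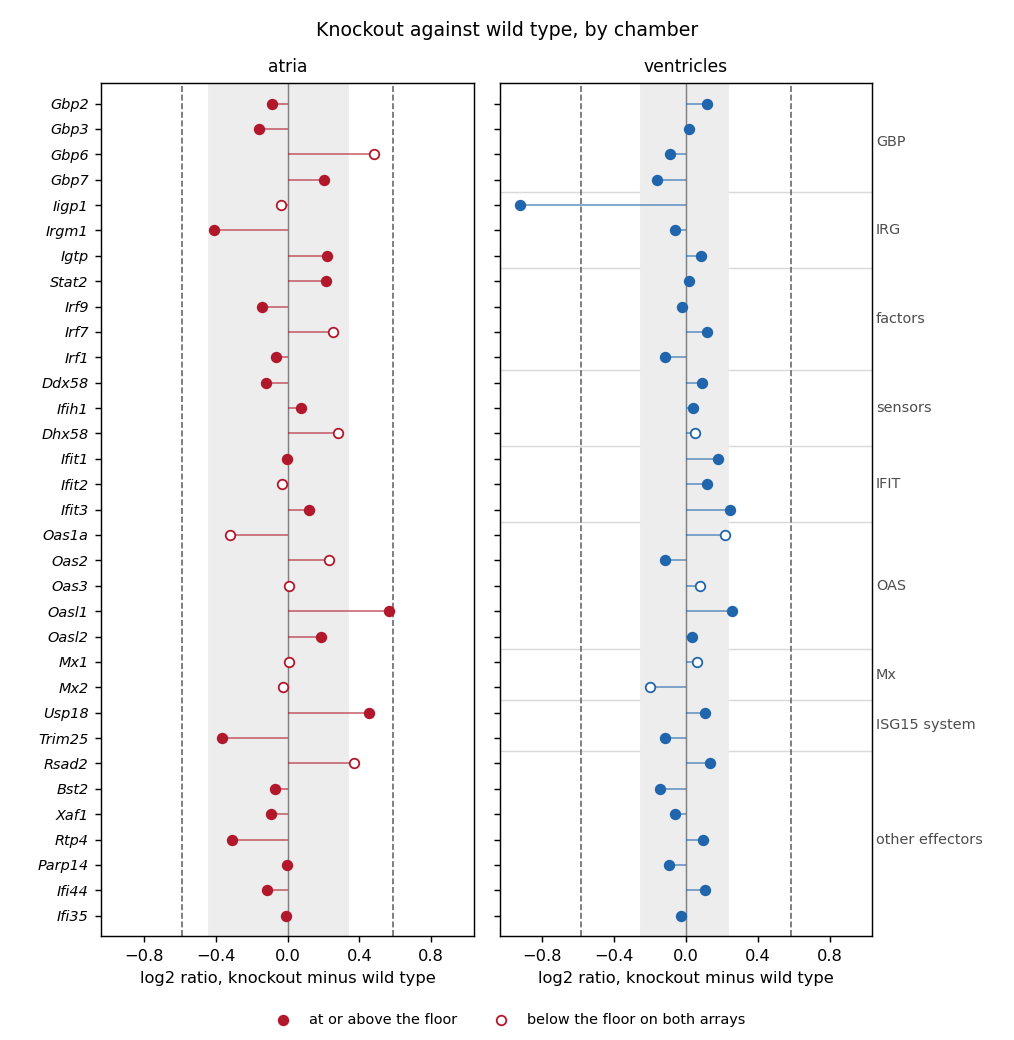
Knockout minus wild type (log2) for each member in atria and ventricles, 1 pooled array per group, with dashed lines at 1.5-fold and a grey band between the 5th and the 95th percentile of all genes above the floor; open markers lie under the floor on both arrays of the pair. Iigp1 at -0.93 in ventricles is the 1 filled marker past the dashed lines, and Oasl1 at 0.56 in atria lies just inside them.

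The knockout difference in atria minus that in ventricles came to 0.89 for Iigp1, the 1 member beyond 1.5-fold, where 3.49% of all genes were (1.45% positive, 2.03% negative), and to 0.57 for Gbp6. Both atrial values of each gene were under the floor. For Iigp1 the figure therefore restates the ventricular difference of -0.93, and for neither gene is it a measured difference between chambers.

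The genes upstream of these targets were mostly low or alike between arrays. Of 10 interferons and receptors, Ifnb1, Ifna2, Ifna4, Ifng and Ifnlr1 lay under the floor on every array, and none of the 5 measurable ones passed a fold limit in any comparison. Ifngr2, a chain of the interferon gamma receptor, read 10.48 in knockout and 10.60 in wild type atria, against 11.07 in knockout and 11.21 in wild type ventricles. Of the 13 measurable signalling genes, none passed a limit between genotypes or between chambers. The knockout difference of Ptpn6, a phosphatase that damps cytokine signalling, was 0.34 in atria and -0.27 in ventricles, and the gap of 0.61 between them was past 1.5-fold and was not tested. Among sensors and adaptors, 3 of 10 measurable genes were lower past 1.5-fold in knockout atria, where 2.01% of all genes were. They were Ifi204, an interferon-inducible DNA-binding protein, at 4.44 in knockout and 6.06 in wild type atria (-1.62), Aim2, a DNA sensor of the inflammasome, at 6.61 in knockout and 7.28 in wild type atria (-0.67), and Tlr4, the lipopolysaccharide receptor (-0.64). The knockout atrial values of Ifi204 and Tlr4 lay under the floor, so their ratios are imprecise. No sensor passed in ventricles. On the same atrial arrays the 7 fibroblast markers had a median difference of -0.51, and their part in these sensor differences was not tested. Between chambers, Tlr4 had -1.38 in knockout and -0.71 in wild type hearts and was the 1 sensor past 2-fold, in knockout hearts.

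In the other target lists, few genes passed a limit. Of 26 measurable other type I targets, 1 was higher past 1.5-fold in knockout atria, where 1.02% of all genes were: Lgals3bp, a secreted glycoprotein, at 7.59 in knockout and 6.94 in wild type atria (0.65). None passed in ventricles or between chambers. Among other interferon gamma targets Cxcl9, a T cell chemoattractant, read 5.78 in knockout and 4.81 in wild type atria, against 6.81 in knockout and 6.27 in wild type ventricles. Cxcl9 was higher by 0.97 in knockout atria, the 1 of 9 measurable genes of its list past 1.5-fold there, and by 0.55 in knockout ventricles. Atria minus ventricles was -1.04 in knockout and -1.46 in wild type hearts. It was also the 1 of 9 lower past 2-fold in atria, against 2.85% of all genes in knockout and 2.21% in wild type hearts. Its wild type atrial value lay under the floor, so the 0.97 and the -1.46 are imprecise. In antigen presentation H2-Q7, an MHC class I molecule, read 6.14 in knockout and 5.12 in wild type atria (1.02). It was the 1 of 13 measurable genes of its list higher past 1.5-fold there, where 1.02% of all genes were. Its wild type atrial value lay under the floor, so this ratio is imprecise too. In ventricles H2-Q7 read 6.12 in knockout and 5.82 in wild type hearts (0.30). Psme1, a subunit of the proteasome activator, had a chamber ratio of -0.82 in knockout and -0.87 in wild type hearts.

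Markers of cell types in the heart were read beside these differences, and their part in the results was not tested. T and NK cell, B cell and neutrophil markers were under the floor on every array (9 of 9, 5 of 5 and 5 of 5). The 10 macrophage markers averaged 7.12 in knockout and 7.08 in wild type atria, against 6.92 in knockout and 7.05 in wild type ventricles, and Cd14 and Fcgr1 were under the floor. The 10 endothelial markers averaged 9.17 in knockout and 9.14 in wild type atria, against 9.27 in knockout and 9.25 in wild type ventricles. Of 8 measurable macrophage markers, 2 had a negative knockout difference in atria, where 56.9% of all genes did, and 7 in ventricles, where 48.6% did. All 7 fibroblast markers had a negative knockout difference in both chambers, with a median of -0.51 in atria and -0.16 in ventricles. In atria 3 of the 7 were lower past 1.5-fold, where 2.01% of all genes were, and in ventricles 0 were. The mean below is that of the fibroblast markers. It was 8.90 in knockout and 9.40 in wild type atria, against 8.31 in knockout and 8.47 in wild type ventricles.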

How the data were processed

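Values deposited by the authors are log2 intensities, 1 per probe set and array, made with RMA and the affy package per the submitters' processing notes. The scale of each array was kept as deposited, and values near background are compressed. Tool versions, array design and probe set definitions are not stated. RNA was extracted with Trizol and labelled with biotin, per the labels' protocols. Of 21212 probe sets, 18786 had 1 gene symbol, and 99.8% of annotated probe sets carry a number equal to the gene's Entrez number, which was used to name Ifi44 and 6 other listed genes.

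From these values, differences of log2 intensity between arrays were computed with Python 3.11.15, numpy 2.4.6 and pandas 2.3.3. A gene counted as different past 1.5-fold for genotype or 2-fold for chamber, if its brighter array reached the median of all values. Every member is described. Genes named from the other lists are those past the fold or with the widest difference, besides chromosomal neighbours of members. With 1 pooled array per group no test, error or paired analysis was possible. Alternatives were median centring, quantile normalization, lowess centring, other floors and other folds. The counting code was run on simulated shifts past the fold in genes well above the floor. That run does not show how reliable a count is near the floor. Lowess used statsmodels 0.14.6. Members and lists were chosen with earlier results of these data known.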

Additional observations from a re-analysis of the deposited data

Results flagged for a closer look

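Tlr4, the lipopolysaccharide receptor, had a knockout minus wild type difference of -0.644 (log2) in atria and 0.0223 in ventricles, opposite in sign. It read 5.58 in knockout and 6.23 in wild type atria, and 6.96 in knockout and 6.94 in wild type ventricles. The knockout atrial value lay under the floor, which makes the atrial ratio imprecise. With 1 pooled array per group this difference between chambers was not tested.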

How the results depend on the processing

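No member past the fold changed sign under any alternative, but some medians did. The cause of these changes was not tested, except that higher floors leave few members. Requiring both arrays to reach the floor drops Gbp6, Iigp1, Irf7, Ifit2, Oas2 and Rsad2 from both chamber comparisons by construction, and all of these were lower in atria. It also drops Gbp3 in knockout hearts, and Oasl1 and Usp18 in wild type hearts. In knockout against wild type atria, the lower fold limit gave 4 members (2 higher, 2 lower). Medians at the ordinary floor there were -0.04 for members, -0.01 for type I targets and -0.08 for the GTPases. A floor at the 75th percentile left 3 members, all of them type I targets, with a median of 0.12. The both-arrays floor left 4 GTPases, with a median of 0.0588. In ventricles a 2-fold limit gave 0 members. Medians at the ordinary floor there were 0.03 for members, 0.04 for type I targets and -0.06 for the GTPases. The 75th percentile floor left 5 members, with a median of -0.0908, and 2 GTPases, Gbp6 and Iigp1, with -0.51. In the knockout chamber comparison the count was 4 under median centring, 4 under quantile normalization, 7 at 1.5-fold (1 higher, 6 lower), 1 at 4-fold, 1 with the 75th percentile floor and 0 with the both-arrays floor. The 75th percentile floor left only Gbp6, Ifit3 and Oasl2. It gave medians of 0.21 for members, 0.44 for type I targets and -2.40 for the GTPases, the last being Gbp6 alone. The ordinary floor gave -0.32, -0.23 and -0.38, and the both-arrays floor -0.12, -0.0727 and -0.22, in that order. GBPs alone had -0.25 and IRGs alone -0.62. In the wild type chamber comparison the count was 8 at 1.5-fold and 0 with the both-arrays floor, which gave medians of -0.0064 for members and -0.21 for the GTPases. The GTPase median was -2.75 with the 75th percentile floor, which left only Gbp6 and Iigp1, -0.35 for GBPs alone and -0.75 for IRGs alone. No paired analysis was possible because each group has 1 array. Nearness to background and the number of arrays limit every value.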

Other observations

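Close copies of members were low. Ifit3b read 2.75 in knockout and 3.45 in wild type atria, and 3.98 in knockout and 3.33 in wild type ventricles. Oas1g read 3.79 in knockout and 3.88 in wild type atria, and 4.76 in knockout and 4.05 in wild type ventricles. Probes shared with Ifit3 or Oas1a were not examined.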
